A study of Petromyzon marinus with 10 samples.

Results

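Single-exon antisense loci are assembled transcripts of 1 exon that lie wholly inside the span of a locus on the other strand. They were chosen from the 57134 loci of the deposited table by 3 conditions, namely exactly 1 exon record, a mean raw count of at least 10 over the 10 libraries, and a position between the first and last base of an opposite-strand locus with at least 2 exon records. Of 22587 single-exon loci, 5705 reached that count and 2241 of these met the rule, lying in 1599 distinct host loci on 302 scaffolds. The rule used position and mean count over all libraries, never the treatment. The count threshold cut through a dense part of the distribution, with 156 antisense loci at a mean raw count of 10 to 11 and 447 single-exon loci of any position just below it, at 9 to 10.

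The libraries came from brainstems of larval sea lampreys (Petromyzon marinus) of the river Ulla in Spain, 5 to 7 years old, all of which had received a complete spinal cord transection. In 5 libraries the animals had been treated with baclofen, an agonist of the metabotropic GABAB receptor, and 5 were injured controls without the drug, so that no uninjured animal was included. Each library was a pool of several brainstems, the p-values therefore measure the spread between pools, and in whole tissue fewer cells of a type and less RNA per cell cannot be told apart. The series text places the tissue on day 29 after injury, whereas the methods of the study give an earlier day for baclofen, and no value below depends on it.

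In vertebrate genomes both strands of many genes are transcribed. Antisense transcripts can start from promoters of their own within introns, from the promoter or end region of the host, or from transposable elements, and many are non-coding. Where they have been studied in other species, some dampen their host by transcriptional interference or by pairing with its RNA, some raise it, and most have no known effect. A single exon without a splice junction gives an assembler no sequence clue to the strand, so the strand of these loci rests on the stranded library alone.

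Total counts ranged from 12774386 to 19566056 per library, and 45332 to 47868 loci had at least 1 count. Control replicate 1 stood apart from the other controls in the measures given below, and the calls among named loci that moved with it are given with and without it. Genes of nervous tissue picked here from the names in the study's lists were present in all libraries. Complexin CPLX1 was at 14419 to 16011 normalized counts with baclofen and 13201 to 14254 in controls. MAP6 was also higher with baclofen without overlap, at 58.2 ± 5.85 against 34.1 ± 5.81. GABRA5 was lower in the mean, at 1200 ± 77.4 against 1310 ± 181, and overlapped (SD, n = 5 each). The 3 markers of blood and immune cells summed to 721 to 945 normalized counts with baclofen and 881 to 1119 in controls. The members of that sum went opposite ways. PTPRC was higher without overlap, at 319 ± 39.7 with baclofen against 217 ± 32.2, and VLRA lower without overlap, at 466 ± 95.0 against 696 ± 79.5. CD62L was lower in the mean, at 41.9 ± 14.0 against 98.3 ± 33.0, and overlapped (SD, n = 5 each). None of the 3 markers (PTPRC, VLRA, CD62L) was at 0 in any library. These names came from lists chosen on differential expression, in these samples or in the study's separate GABA experiment, from which GABRA5 came. Their part in the results below was not tested.

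Most antisense loci sat in host introns. Of the 2241, 2039 touched no exon of their host and 202 (9.01%) overlapped a host exon, by a median of 199.5 bases or 16.0% of their length. Only 33 had at least 50% of their length over host exon. They were spread evenly along their hosts, with 564, 547, 574 and 556 in 4 equal stretches from the 5′ to the 3′ end and a median relative position of 0.503. Within 1000 bases of the 5′ end of the host lay 68 antisense loci, and 87 lay within 1000 bases of the 3′ end. Such a window is a small part of the median host span of 138132 bases, so these counts do not show a lack of antisense loci at host ends. Antisense transcripts that cross an end of their host are outside the rule, which asks for a position wholly inside it.

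**Figure D1:**
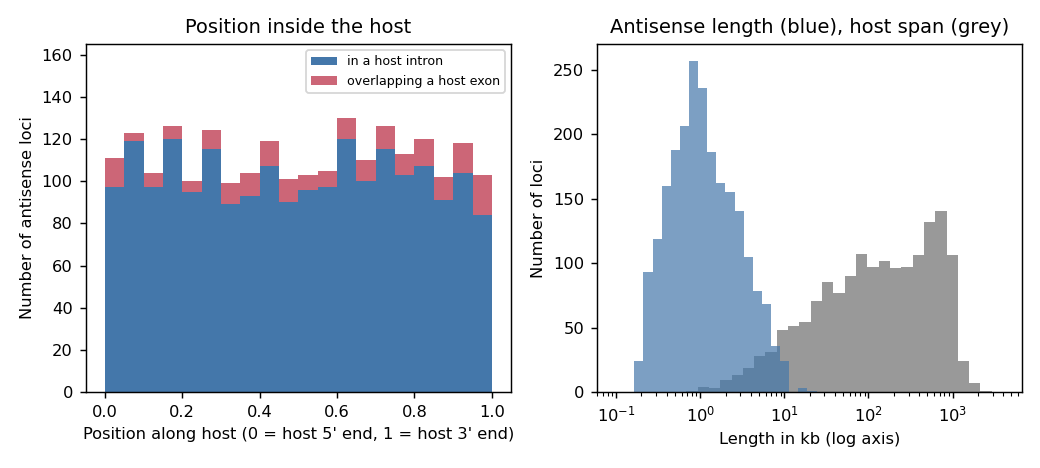
Left, number of antisense loci by position along the host, from its 5′ end at 0 to its 3′ end at 1, with loci that overlap a host exon in red. Right, number of loci by length in kb on a log axis, for antisense loci (blue, median 1024 bases) and host spans (grey, median 138132 bases); positions fill the host evenly and the length distributions overlap only in part.

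The antisense loci were short and their hosts were long. Their median length was 1024 bases (quartiles 557 and 2122, range 200 to 19910), against a median host span of 138132 bases. Of the hosts, 892 (55.8%) spanned over 100 kb, compared with 3906 (11.3%) of all 34547 loci with at least 2 exon records. A longer span offers more room for a locus inside it, and the rule asks for containment, so this difference is set by the choice of members. Each host held 1 antisense locus in 1205 cases, and 394 hosts held several, up to 9, which together accounted for 1036 antisense loci. In 782 cases the antisense locus lay inside more than 1 host, and the shortest span was then taken as the host.

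Neighbours on the same strand were common. An assembled locus of the same strand lay within 2000 bases of 1203 antisense loci, and another antisense locus did so for 331. Inside the span of a same-strand locus lay 673 of them, with exon overlap in 10. Such loci share their intron with a gene of their own strand, and the files do not tell whether they are separate transcripts.

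The word gene fits the hosts only in part. Of the 1599 hosts, 504 had a mean raw count under 10, 31 had no count in any library, and 468 consisted of exactly 2 exon records. The 504 thin hosts had a median span of 145159 bases, 2 exon records and 397.5 bases of exon, with short and many-exon exceptions, and all are called host loci here for that reason. At the other end, 309 hosts had a mean raw count of at least 1000, with a median of 36 exon records.

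Most antisense loci were modest in abundance, with a long upper tail. Their median was 24.5 normalized counts (quartiles 14.1 and 67.5), 701 reached 50, 44 reached 1000 and the highest stood at 24928. Per kb of exon, the median antisense level was 26.9 normalized counts, against 39.7 for the hosts, 31.8 for the 358 single-exon loci lying only inside a locus of their own strand, and 21.4 for the 2694 single-exon loci that overlap no other locus. Antisense loci that overlap a host exon were at 21.2 per kb and those in host introns at 27.8.

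The levels were also set beside those of the hosts. The rule removed antisense loci with a mean raw count under 10 and put no such floor under the hosts, so the values of this paragraph are partly fixed by the choice of members and describe it. Across hosts with a mean raw count under 10, from 10 to 100, from 100 to 1000 and of at least 1000, the median antisense level per kb was 24.2, 27.1, 28.4 and 29.4 normalized counts. The ratio of antisense to host level has the host count as its denominator. Its median log2 value per kb (0.5 added to raw counts) was 2.33 in the thinnest hosts, 0.07 and -1.59 in the middle classes and -3.11 in the most abundant ones. The antisense locus exceeded its host per kb in 1020 of 2241 cases (45.5%), which were 91.5% of the antisense loci in hosts under 10 counts, a class where the floor nearly fixes the order, and 5.25% in hosts of at least 1000.

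Pooled over all hosts, antisense loci over host exons were lower against their hosts than intronic ones. The median log2 ratio was -1.18 and -0.23, with 28.7% and 47.2% of them above the host. Hosts under 10 counts held 36 of the 202 with exon overlap and 30.8% of all antisense loci. The ratio varies with host abundance, and the pooled difference was not separated from it. As a share of host counts the order varied with the host. In hosts of at least 1000 counts the 34 antisense loci with exon overlap had a median of 1.55% of the host's counts and those in introns 1.10%. In hosts of 100 to 1000 counts the order was the other way, with 6.91% for exon overlap and 7.37% for introns. It was also the other way in hosts of 10 to 100 counts, with 85.7% and 99.9%. In hosts under 10 counts, those at 0 left out, the medians were 1400% for exon overlap and 1267% for introns. The share of fragments that the library protocol places on the wrong strand was not measured here.

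**Figure D2:**
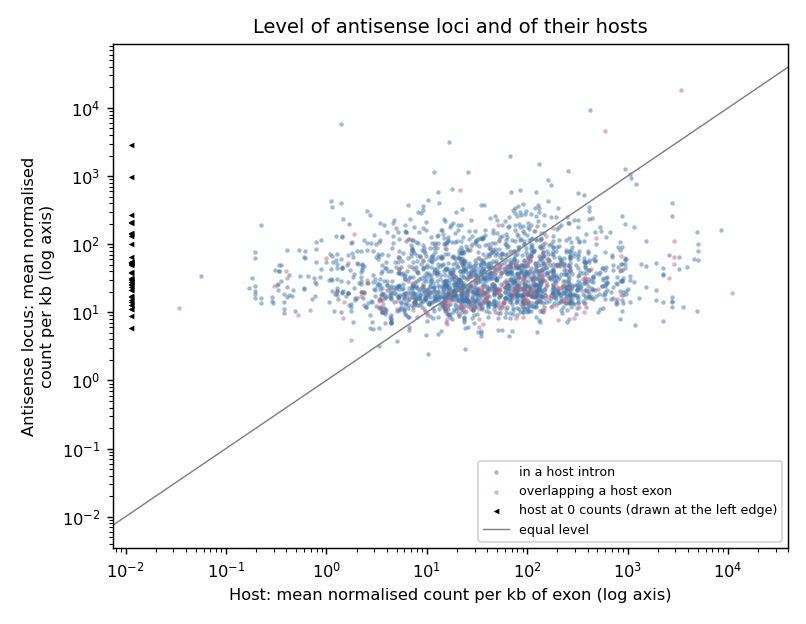
Mean normalized count per kb of each antisense locus against that of its host, both on log axes, with hosts at 0 counts drawn as triangles at the left edge and the grey line marking equal level. Median antisense levels were 24.2 to 29.4 across the 4 classes of host abundance, and the lower edge of the cloud comes from the rule, which asked for a mean raw count of at least 10 in antisense loci and not in hosts.

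The most abundant antisense locus was MSTRG.36157, which the study's GABA list names MT-CO2, a subunit of the mitochondrial respiratory enzyme cytochrome c oxidase. It lay at PIZI01000090.1:1376312-1377670 on the minus strand of Pmar_germline 1.0, with 66 of its 1359 bases over an exon of the host MSTRG.36156. It also lay inside the span of a locus of its own strand. Its normalized counts were 19885, 24501, 25080.5, 24264 and 23463 in the baclofen libraries, in replicate order, and 22726, 31790.1, 24368, 30381 and 22819 in the controls. The groups overlapped, at 23438 ± 2070 and 26417 ± 4340 (SD, n = 5 each; -0.17 ± 0.10 SE on the log2 scale; DESeq2, adjusted p = 0.943). Whether copies of this sequence elsewhere in the genome share its fragments was not tested.

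The next in abundance had nearly silent hosts under the rule that takes the shortest span. MSTRG.8447 lay inside 3 host loci, of which only the shortest is described here, and MSTRG.21676 inside 1. MSTRG.8447 (PIZI01000010.1:12438070-12443674, plus strand, 5605 bases) stood at 18014 ± 1527 normalized counts with baclofen and 17504 ± 2027 in controls, in an intron of MSTRG.8442, a host of 2 exon records with 6.86 ± 1.81 and 7.25 ± 3.15 (SD, n = 5 each). MSTRG.21676 (PIZI01000033.1:1535164-1541143, plus strand, 5980 bases) stood at 17365 ± 612 and 16827 ± 1132, and its host MSTRG.21675 had 0 counts in all 10 libraries. Both had log2 fold changes within their standard error of 0 (0.04 ± 0.08 and 0.05 ± 0.06). For these loci the host taken here is a frame in the assembly with almost no RNA of its own.

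Other abundant loci differed in build. MSTRG.13122 (PIZI01000017.1:12602731-12611257, plus strand, 8527 bases) overlapped exons of MSTRG.13119 by 442 bases and had 5374 ± 340 normalized counts with baclofen and 5376 ± 380 in controls, against 48.5 ± 5.82 and 46.7 ± 5.13 in the host. MSTRG.20246 (481 bases) and MSTRG.24916 (522 bases) were short and dense, at 9323 and 5824 normalized counts per kb. MSTRG.8860, at 19910 bases the longest of all, lay in an intron of a host with more RNA than itself, since MSTRG.8855 had 7199 ± 517 and 8085 ± 1630 normalized counts and the antisense locus 3276 ± 247 and 3083 ± 180. None of these antisense loci passed the DESeq2 test over all libraries. Without control replicate 1, MSTRG.20246 (-0.28; adjusted p = 0.0103) and the host MSTRG.8855 (-0.28; adjusted p = 0.0167) were called lower.

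The comparison of treated with control animals asked which antisense loci changed with baclofen. Of the 2241, 1660 passed the filter on low mean counts that DESeq2 sets (14.35 normalized counts) and could be tested, and 4 passed an adjusted p of 0.05 over all tested loci, 2 higher and 2 lower. That is 0.241% of those tested, against 0.345% of all 23794 tested loci, 0.269% higher and 0.0756% lower. The share of antisense loci is near the background. At an unadjusted p under 0.05 there were 68 (4.10%), against 5.8% of all tested loci.

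The fitted changes were centred on 0. The median log2 fold change of the tested antisense loci was -0.000294, with quartiles of -0.12 and 0.13, and 828 were above 0 and 832 below. Over all tested loci the median was -0.0052. The groups did not overlap at 11 antisense loci (0.663%), 6 higher and 5 lower, against 1.25% of all tested loci. Antisense loci carried larger errors than the average locus, with a median standard error of 0.242 on the log2 scale against 0.141.

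Read at equal abundance, the shares lay closer together. Between 0 and 50 normalized counts, 2.81% of 960 antisense loci had an unadjusted DESeq2 p under 0.05, against 3.41% of all loci of that abundance. From 50 to 200 these shares were 4.51% of 466 and 5.35%, and at 200 and above 8.55% of 234 and 7.75%. Of the 4 calls, 3 fell among the 234 most abundant, where 0.609% of all loci were called.

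**Figure D3:**
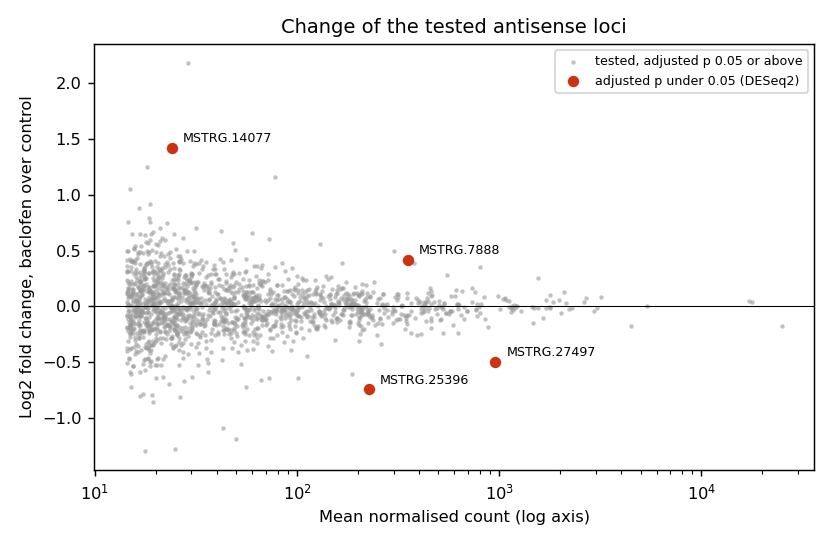
Log2 fold change, baclofen over control, against mean normalized count on a log axis for the 1660 tested antisense loci, with the 4 that passed an adjusted p of 0.05 in red and named. The spread narrows with abundance around a median of -0.000294, and 1 grey point, MSTRG.6334 at 2.18, lies farther from 0 than the called loci.

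The clearest change was a fall of MSTRG.25396, an intronic locus of 7464 bases at PIZI01000041.1:2509882-2517345 on the minus strand. The study's list gives it the name rCG20914, which carries no known role. Its normalized counts were 215, 146.5, 167, 168 and 157 in the treated libraries and 289, 283, 247, 283 and 316 in the controls. Every baclofen library was below every control library. The means were 171 ± 26.2 and 284 ± 24.4 (SD, n = 5 each), which is -0.74 ± 0.11 on the log2 scale (SE; adjusted p of 1.46e-07 by DESeq2 and of 0.0108 by edgeR, in which it was the single antisense call among 0.0918% of all loci called).

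The host of this locus went the other way in value without passing the test. MSTRG.25384 spans 419900 bases on the plus strand (PIZI01000041.1:2271151-2691050) with 9 exon records, and the antisense locus MSTRG.25396 lies 238731 bases from its 5′ end. Its normalized counts were 1796, 1532, 1639, 1667 and 1819 with baclofen and 1507, 1470, 1539, 1525 and 1451 in controls, so that baclofen replicate 2 fell within the control range. The fitted difference was 0.17 ± 0.06 on the log2 scale (SE; DESeq2, adjusted p = 0.320). The log2 ratio of antisense to host level per kb averaged -4.05 ± 0.17 in treated and -3.14 ± 0.16 in control libraries (SD, n = 5 each), without overlap. Across the 10 libraries, which include both groups, the levels of the pair had a Pearson's r of -0.65, given as a description.

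MSTRG.7888 rose. It is an intronic locus of 5285 bases at PIZI01000009.1:16349818-16355102 on the plus strand, with no name in the study's lists. Its normalized counts were 360, 441, 406, 414 and 403 in the treated libraries and 265, 344, 298, 303 and 308 in the controls. The groups did not overlap, with means of 405 ± 29.2 and 304 ± 28.3 (SD, n = 5 each), a difference of 0.42 ± 0.09 on the log2 scale (SE; DESeq2, adjusted p = 0.00224). Its host MSTRG.7884 is a thin model, 721806 bases long with 383 bases of exon, at 2.57 ± 1.95 and 6.09 ± 2.39 normalized counts. The call was kept when any of the 10 libraries was left out and was lost in edgeR (adjusted p = 0.0905).

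MSTRG.14077 rose at low abundance. It is 370 bases long (PIZI01000019.1:5754441-5754810, plus strand), and 72 of them overlap an exon of MSTRG.14076, itself at 13.0 ± 6.06 and 10.7 ± 7.70 normalized counts. The normalized counts of the antisense locus were 20.2, 52.4, 37.5, 23.0 and 42.8 with baclofen and 13.6, 10.3, 9.06, 23.8 and 8.69 in controls. Control replicate 4 lay within the baclofen range and the other controls below it. The means were 35.2 ± 13.5 and 13.1 ± 6.30, and the log2 fold change was 1.42 ± 0.36 (SE) at a DESeq2 adjusted p of 0.0252. The call remained only without baclofen replicate 1, baclofen replicate 4 or control replicate 4 and was lost without each of the other 7 libraries (adjusted p up to 0.241) and in edgeR (adjusted p = 0.241).

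MSTRG.27497 fell together with its host in value. It is 206 bases long (PIZI01000045.1:8201479-8201684, minus strand), with 66 bases over an exon of MSTRG.27485, and it was dense, at 4649 normalized counts per kb. Its normalized counts were 971, 785, 903, 739 and 576 in the treated libraries and 848, 1160, 1103, 1252 and 1239 in the controls. Control replicate 1 lay within the baclofen range. The means were 795 ± 153 and 1120 ± 164, which is -0.50 ± 0.13 on the log2 scale (SE), at an adjusted p of 0.0469 by DESeq2 and of 0.324 by edgeR. The call remained without baclofen replicate 1, baclofen replicate 3 or control replicate 1 and was lost without each of the other 7 libraries (adjusted p up to 0.275).

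Host and antisense locus kept their ratio here. MSTRG.27485 had 845 ± 217 normalized counts with baclofen and 1188 ± 336 in controls (-0.49 ± 0.25 SE on the log2 scale; DESeq2, adjusted p = 0.851). The log2 ratio per kb of MSTRG.27497 to it was 2.96 ± 0.18 and 2.99 ± 0.33. Without control replicate 1 this host was called lower as well (-0.64; adjusted p = 0.0386). The levels of the pair had an r of 0.84 over the 10 libraries. On the strand of MSTRG.27497, 346018 bases away, lies FTH1 (MSTRG.27482), the ferritin heavy chain that stores iron, which was itself called lower (-0.62 ± 0.14 SE; DESeq2 adjusted p = 0.00305) and had an r of 0.91 with it over the 10 libraries. This neighbour was looked up after the values had been seen. FTH1 and MSTRG.27497 were both called, and both groups enter the r, which is given as a description. The same look-up of called loci gave SoxE1 for MSTRG.14077, 1541112 bases away with an r of 0.58. For MSTRG.7888 it gave TMRT61A, 12107862 bases away with an r of -0.77.

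**Figure D4:**
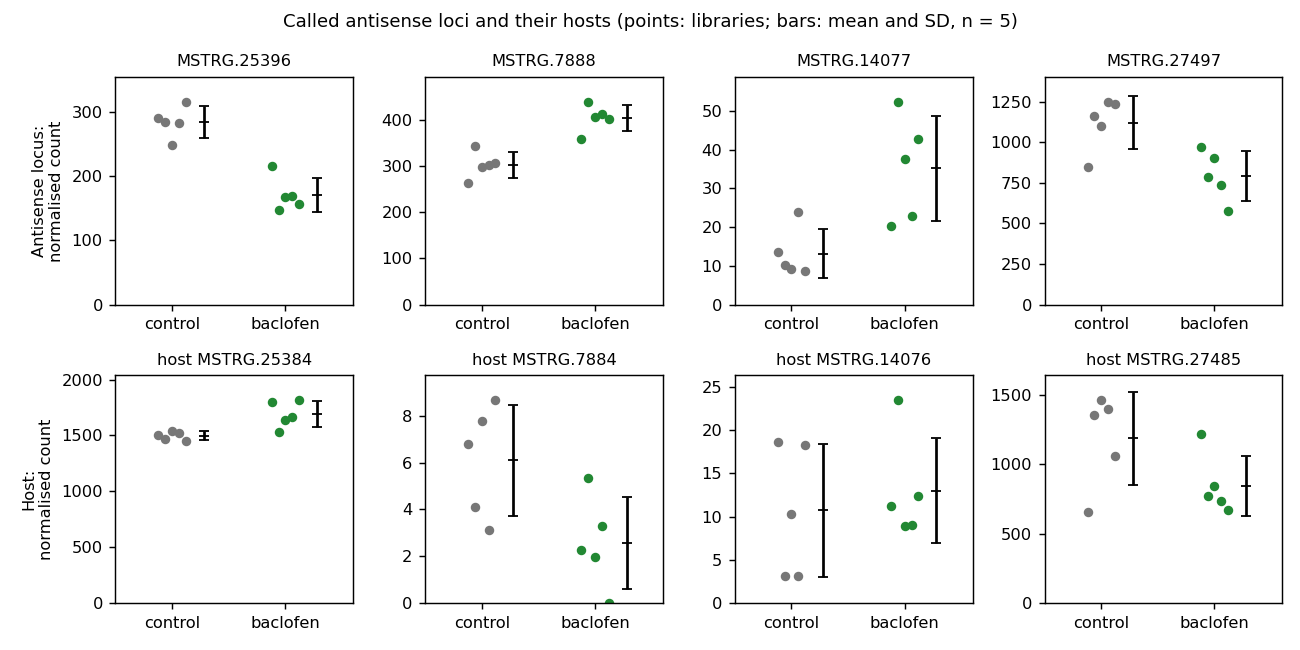
Normalized counts of the 4 called antisense loci (top) and of their hosts (bottom) in each library, with mean and SD (n = 5) beside the points and every axis starting at 0. MSTRG.25396 and MSTRG.7888 show no overlap between the groups, whereas MSTRG.14077 and MSTRG.27497 each overlap through 1 control library.

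Behind these 4 came 3 loci with higher and 3 with lower values that missed the threshold. MSTRG.1913 had 51.3 ± 9.63 normalized counts with baclofen and 81.0 ± 15.2 in controls without overlap (log2 fold change -0.66 ± 0.19 SE; DESeq2 adjusted p = 0.0880). MSTRG.13369 (-0.61; adjusted p = 0.0940) and MSTRG.2942 (-0.64; adjusted p = 0.314) overlapped between the groups. MSTRG.22714 (0.50; adjusted p = 0.118), MSTRG.21086 (0.39; adjusted p = 0.237) and MSTRG.23859 (0.56; adjusted p = 0.314) were higher in value, the second of them without overlap. Of the 6, 4 were called once control replicate 1 was left out, namely MSTRG.13369 (-0.68; DESeq2 adjusted p = 0.00751), MSTRG.22714 (0.62; 0.000526), MSTRG.21086 (0.44; 0.0423) and MSTRG.23859 (0.65; 0.0315). In that comparison 3.33% of all tested loci were called, against 0.345% over all libraries, and MSTRG.1913 and MSTRG.2942 had no adjusted p. MSTRG.13369 was also called without control replicate 4 (DESeq2 adjusted p = 0.0190), and MSTRG.2942 without baclofen replicate 1 (DESeq2 adjusted p = 0.0477). Hosts of these 6 ranged from thin models such as MSTRG.1904, at 2.64 ± 1.78 and 2.70 ± 3.40 normalized counts, to MSTRG.2926 at 2740 ± 63.8 and 2636 ± 145.

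Some antisense loci were near 0 in some libraries and high in others, in both groups. Tested antisense loci with a log2 fold change beyond 1 in size numbered 9, and MSTRG.14077 was the called one among them. MSTRG.6334 (PIZI01000007.1:17062509-17065727, plus strand), chosen after its values were seen, had 47.2, 6.42, 107, 73.9 and 2.47 normalized counts with baclofen and 1.70, 2.06, 3.88, 2.07 and 42.5 in controls. The fitted change of 2.18 ± 1.18 on the log2 scale (SE; DESeq2, adjusted p = 0.911) rested on 3 baclofen libraries, and control replicate 5 came close to the lowest of these. Without that control it was called higher (4.31; adjusted p = 0.0363). MSTRG.5613 had 4.50, 5.35, 244, 185 and 99.7 with baclofen and 0, 7.21, 6.47, 219.5 and 7.72 in controls.

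A pair among the 9 antisense loci with a log2 fold change beyond 1 in size shared a host and a pattern, with near-0 values in baclofen libraries only. MSTRG.16582 and MSTRG.16583 lie on the minus strand of PIZI01000023.1, at 14302636-14305872 and 14321458-14323275, inside MSTRG.16579. The normalized counts of MSTRG.16582 were 65.2, 77.0, 1.97, 6.57 and 1.65 with baclofen and 69.6, 71.1, 67.3, 110 and 29.0 in controls. Those of MSTRG.16583 were 47.2, 88.8, 0, 0 and 0.824 with baclofen and 46.7, 63.9, 59.6, 100.4 and 20.3 in controls. Both were low in baclofen replicates 3 to 5 and at control level in replicates 1 and 2. Neither was called, with fitted changes of -1.19 ± 0.99 and -1.09 ± 1.49 on the log2 scale (SE; DESeq2 adjusted p = 0.998 for each). The pair was picked from loci listed for the size of their change, which favours uneven libraries. Each library is a pool of animals, and whether single animals carry these transcripts is not shown by these files.

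Calls among the hosts were near the background too. Of 1014 tested hosts, 3 passed the threshold (0.296%, against 0.345% of all tested loci), all higher, and none of their antisense loci did. The strongest was MSTRG.36248, the locus of PRG4, a lubricating proteoglycan, at 537 ± 36.0 normalized counts with baclofen and 376 ± 31.7 in controls without overlap (log2 fold change 0.52 ± 0.08 SE; DESeq2 adjusted p = 8.37e-07). The antisense locus MSTRG.36257 in its intron had 120, 79.1, 90.7, 87.8 and 74.97 normalized counts with baclofen and 89.1, 76.2, 64.7, 73.5 and 88.8 in controls, so the groups overlapped (0.19 ± 0.17; adjusted p = 0.998). MSTRG.36261, farther along the same span, gave 0.23 ± 0.16 (adjusted p = 0.990). By the shortest span its host is MSTRG.36259 (0.15 ± 0.06 SE; DESeq2 adjusted p = 0.709), and PRG4 is an outer host. MSTRG.36259 was called higher without baclofen replicate 2 (0.20; DESeq2 adjusted p = 0.0209).

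CLCN2 and MSTRG.2069 were the other called hosts. CLCN2 (MSTRG.24520), a voltage-gated chloride channel, rose from 2714 ± 184 to 3256 ± 200 normalized counts (log2 fold change 0.26 ± 0.06 SE; DESeq2 adjusted p = 0.0157), while MSTRG.24521 in its intron, at 14.6 ± 3.78 with baclofen and 8.91 ± 3.73 in controls, was too low for an adjusted p. MSTRG.2069 rose from 1151 ± 81.6 to 1365 ± 64.6 (0.24 ± 0.06 SE; DESeq2 adjusted p = 0.0451), and the antisense loci MSTRG.2071 and MSTRG.2072 in its introns were again below the filter. An outer host, MSTRG.14845, rose by 0.68 ± 0.14 (SE; DESeq2 adjusted p = 0.00123), and MSTRG.14860 inside it had a log2 fold change of 0.13 ± 0.32. All of these antisense loci had positive values over all libraries, and none with an adjusted p was past the threshold. The value of MSTRG.2071 turned negative without baclofen replicate 4, and that of MSTRG.14860 without baclofen replicate 1. The shared sign is therefore given as a description only, and no difference between an antisense locus and its host was tested.

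The counts of antisense loci were also set beside those of their named hosts, as percentages that take no account of length. In called hosts the count of the antisense locus was 18.5% and 14.7% of that of PRG4 (MSTRG.36257 and MSTRG.36261), 4.01% of MSTRG.14845 (MSTRG.14860), 1.135% and 1.003% of MSTRG.2069 (MSTRG.2071 and MSTRG.2072) and 0.393% of CLCN2 (MSTRG.24521). Per kb the order differed, with a log2 ratio to PRG4 of 1.35 for MSTRG.36257 and 0.079 for MSTRG.36261. To its shortest host, MSTRG.36259, the log2 ratio of MSTRG.36261 was -1.71. In the other called hosts this ratio was negative, from -1.75 for MSTRG.24521 to -3.30 for MSTRG.2072. In named hosts that did not pass the test the antisense count was under 1% of the host count. MSTRG.12567 overlaps exons of VIM, the intermediate filament vimentin, by 159 bases, and had 73.0 ± 8.86 normalized counts with baclofen and 62.3 ± 7.95 in controls (0.23 ± 0.17 SE; DESeq2 adjusted p = 0.990), which is 0.621% of the VIM count. VIM itself (MSTRG.12566) had 10966 ± 484 and 10828 ± 536. MSTRG.41698 lies in an intron of GABRA5 (MSTRG.41697), a subunit of the ionotropic GABA receptor, at 13.3 ± 4.65 and 11.2 ± 2.46, or 0.975% of its host, which had 1200 ± 77.4 and 1310 ± 181 (-0.13 ± 0.09 SE; DESeq2 adjusted p = 0.989). MSTRG.32609 and MSTRG.32610 lie within the span of GTF2F2, a subunit of a general transcription factor of RNA polymerase, at 0.0802% and 0.164% of its count.

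Antisense locus and host had no common direction of variation from library to library. Among the 340 pairs with both partners at 50 or more normalized counts, the median Pearson's r over the 10 libraries was 0.025 (quartiles -0.21 and 0.29). Above 0.5 lay 43 pairs (12.6%) and below -0.5 lay 38 (11.2%). A median near 0 with pairs on both sides does not show independence, which was not tested. The median was -0.028 for the 43 pairs with exon overlap and 0.041 for the 297 intronic ones. Single-exon loci inside a locus of their own strand had a median of 0.186 with that locus over 70 pairs, 24.3% of them above 0.5. Between antisense loci of the same host the median was 0.118 over 130 pairs. The points of each r share libraries, both groups and depth, so these are descriptions.

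The same held for the changes with treatment. In the 1055 pairs with a fitted change for both partners in the tested set, from 800 hosts, the log2 fold changes had the same sign in 537 (50.9%) and a Pearson's r of 0.019 (Spearman's rho 0.032) across pairs. Pairs are not independent replicates, since some hosts appear several times. The median size of the log2 fold change was 0.124 for antisense loci, with a median standard error of 0.247, and 0.0722 with 0.101 for hosts. At these errors most single antisense loci could not be told from no change.

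Hosts with many antisense loci ranged widely in span. MSTRG.7835, of 19536 bases, held 9 antisense loci of 10.8 to 33.0 normalized counts, which together came to 156 ± 14.9 with baclofen and 182 ± 19.1 in controls. MSTRG.21085, of 1708684 bases, also held 9, which together had 1273 ± 50.2 and 1197 ± 82.1 over a summed length of 24293 bases. The host had 56.8 normalized counts on 754 bases of exon, or 75.4 per kb. The sum and the host count are therefore not on the same scale. The 8 in MSTRG.7660 summed to 998, 924, 1000.1, 1019 and 988 normalized counts with baclofen and 1105, 1138, 1041, 1054 and 1075 in controls. Every baclofen value was below every control value there, the only such sum among the 5 hosts with most antisense loci. The 8 did not fall together, since 4 had fitted changes above 0, within a range of -0.25 to 0.86 on the log2 scale. The most abundant, MSTRG.7699, made up 409 of the mean sum of 1034. None of the 5 that could be tested was called (smallest DESeq2 adjusted p 0.590). The host was lower in value, by -0.21 ± 0.07 on that scale (SE), without being called (adjusted p = 0.244 by DESeq2).

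As a whole the antisense loci took a small and steady part of each library. Their share of all counts was 1.76, 1.84, 1.76, 1.85 and 1.77% in the treated libraries and 1.95, 1.77, 1.72, 1.77 and 1.73% in the controls, both in replicate order. The means were 1.80 ± 0.0425% and 1.79 ± 0.0940% (SD, n = 5 each), and without control replicate 1 the control mean was 1.75 ± 0.0255%. The hosts held 7.50 ± 0.0618% and 7.40 ± 0.152%. The median log2 ratio of antisense to host level was -0.41 ± 0.036 and -0.40 ± 0.046.

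Control replicate 1 was high in intronic antisense RNA. Antisense loci in host introns held 1.67% of its counts and 1.46 to 1.47% of the other 4 controls, with the 5 baclofen libraries between these values, at 1.49 to 1.57%. Without control replicate 1 all baclofen libraries were thus above all controls, by 0.0644 percentage points in the mean. The same library was highest in the single-exon loci inside a locus of their own strand (0.523% against 0.441 to 0.451% in the other controls and 0.460 to 0.486% with baclofen) and in isolated single-exon loci (1.37% against 1.17 to 1.21% and 1.21 to 1.29%), so this feature was not particular to antisense loci. Antisense loci that overlap a host exon did not show it, at 0.281% in control replicate 1, 0.263 to 0.309% in the other controls and 0.245 to 0.287% with baclofen.

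**Figure D5:**
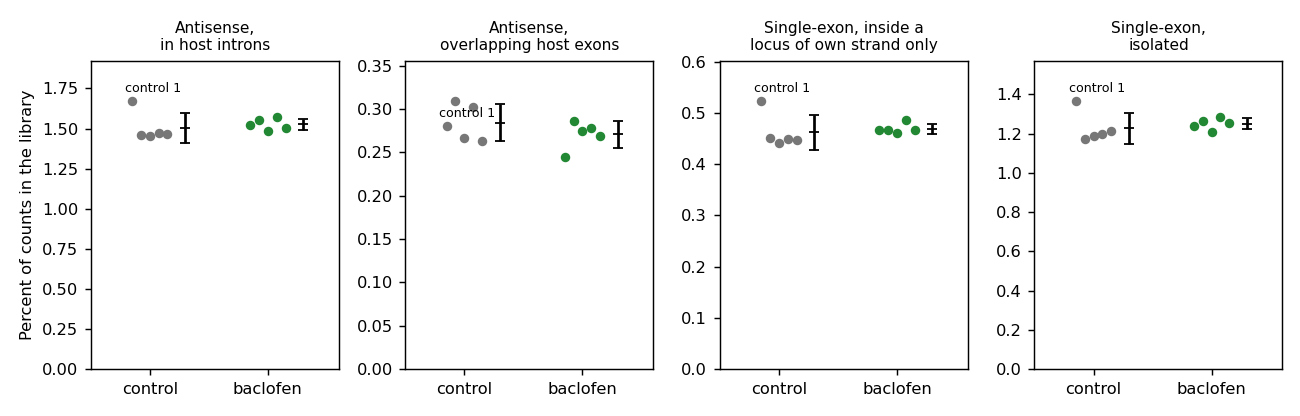
Percent of the counts of each library in 4 kinds of single-exon locus, with mean and SD (n = 5) beside the points and axes starting at 0. Control replicate 1 is highest in intronic antisense loci (1.67%), in loci inside a locus of their own strand (0.523%) and in isolated loci (1.37%), and not in antisense loci over host exons.

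The number of calls also moved with this library. Without control replicate 1, 426 of 12802 tested loci were called (3.33%), and 10 of 379 tested antisense loci (2.64%), 4 higher and 6 lower. MSTRG.25396, MSTRG.7888 and MSTRG.27497 remained among these 10, whereas MSTRG.14077 had no adjusted p in that comparison. Called hosts numbered 21 in that comparison. Other single libraries moved the counts less. There were 2 antisense calls without baclofen replicate 2, baclofen replicate 5, control replicate 2 or control replicate 3, which are 0.110, 0.0894, 0.110 and 0.214% of the antisense loci tested, against 0.263, 0.145, 0.327 and 0.533% of all loci in the same comparisons. Called hosts numbered 5 without baclofen replicate 1 and 1 without control replicate 4, where 0.453% and 0.213% of all tested loci were called.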

How the data were processed

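Stranded poly(A) libraries of the 10 brainstem pools were made by the authors, who trimmed reads with Fastp, aligned them with STAR to Pmar_germline 1.0, assembled loci with StringTie and counted fragments by strand with featureCounts (versions not given in the sources used here). The deposited values are raw counts per locus with exon coordinates. The exon lists of 2 loci, broken over lines, were rejoined. Multi-mapping fragments, and those shared by overlapping loci of a strand, were left uncounted by default, so such loci may read low. No genome sequence of this assembly was used, so no sequences are shown.

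Host position and exon overlap came from merged exon records. Counts were compared with DESeq2 1.42.0 in R 4.3.3 (size factors by median of ratios, Wald test on treatment without other terms, Cook's cutoff, independent filtering, Benjamini-Hochberg over all tested loci, threshold 0.05). Of 51816 loci with a count, 23794 were tested and 84 lost their p to Cook's cutoff. Log2 fold changes are baclofen over control, unshrunken. Normalized counts are raw counts over size factors; levels of different loci were compared per kb of exon, with 0.5 added to raw counts in ratios. Intervals and SDs cover the spread between pools. The alternatives were edgeR 4.0.16 with and without its filter, TMM or total-count scaling, a low-count filter (at least 10 counts in 5 libraries), no independent filtering, no Cook's cutoff, a replicate block, each library left out, and other definitions of members and hosts. The comparisons were tested on simulated data, with changes planted only in loci of at least 50 normalized counts, a level most antisense loci did not reach. Named were called loci, the 5 smallest adjusted p in each direction, the 6 highest in level and in level per kb, those with called or listed hosts, the 5 highest ratios to the host and the 5 hosts with most antisense loci. Names came from the study's lists, whose values were not used. The set, the lists and the rules were chosen with earlier results of these data known.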

Additional observations from a re-analysis of the deposited data

Results flagged for a closer look

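The 160 groups of 5 examined for deviating libraries included loci listed for a fitted log2 change beyond 1 in size. Chance alone gives about 8 in groups not chosen on their values, so the number found cannot be read against it. Single libraries stood apart from the other 4 of their group in 13 of the 160. Control replicate 1 accounted for 4 of these as the highest library, with 1.95% of counts in antisense loci (others 1.72 to 1.77%), 1.67% in intronic antisense loci (others 1.46 to 1.47%), 0.523% in single-exon loci inside a locus of their own strand (others 0.441 to 0.451%) and 1.37% in isolated single-exon loci (others 1.17 to 1.21%). These measures share loci or libraries and are not independent. Baclofen replicate 4 was highest in own-strand loci, at 0.486% (others 0.460 to 0.467%).

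Of the abundant loci, MSTRG.13122 was lowest in baclofen replicate 1, at 4780 normalized counts against 5423 to 5633. Among hosts, MSTRG.14076 was highest in baclofen replicate 2, at 23.5 against 8.88 to 12.4, and MSTRG.36259, the inner host of MSTRG.36261, was lowest in the same library, at 2878 against 3352 to 3522.

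Several antisense loci with large fitted changes had 1 deviating library, and choosing loci by the size of the change favours uneven libraries. MSTRG.3545 reached 33.5 normalized counts in baclofen replicate 3 (others 2.14 to 5.77), and MSTRG.4499 reached 111 in control replicate 2 (others 9.32 to 29.8). MSTRG.5613 stood at 219.5 in control replicate 4 (others 0 to 7.72). Control replicate 5 was the high library for both MSTRG.6334, at 42.5 (others 1.70 to 3.88), and MSTRG.18952, at 46.3 (others 1.03 to 3.11).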

How the results depend on the processing

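Of the 4 antisense calls, 1 (MSTRG.25396, lower) remained in edgeR with or without its filter, where 0 were higher and 1 host was called. The edgeR test with its filter called 25 of 27244 loci (0.0918%) and gave 108 of 2197 antisense loci an unadjusted p under 0.05. Total counts as size factors left 3 calls (0.321% of tested antisense loci, against 0.558% of all tested loci). A filter of at least 10 counts in 5 libraries also left 3 (0.509% against 0.628%). In both, 1 call was higher and MSTRG.14077 had no adjusted p. Without independent filtering 2 calls remained, 1 higher and 1 lower (0.0894% against 0.122%). Leaving out single libraries gave 2 to 10 calls, 1 to 4 higher, 1 to 6 lower and 1 to 21 called hosts, the highest of each without control replicate 1. Of all tested loci, 0.145 to 3.33% were called in these comparisons, again with the highest share without control replicate 1. The median log2 fold change stayed between -0.0112 and 0.0189 under every fit. Of 1132 values of 64 named loci, 1072 kept their side of the threshold, 48 lost a call and 12 gained one. Values without an adjusted p were taken as not called, so untested values are among the 1072 and the 48. The sign differed from that over all libraries in 53 of the 1132, in none of which either value was called. Apart from leaving out libraries, 8 settings were run. MSTRG.25396 kept its call in 8, MSTRG.7888 in 5, MSTRG.27497 in 4 and MSTRG.14077 in 2. With a mean raw count of at least 50 the set held 710 loci, and with at least 50% of the length over host exon 33 in place of 202 counted as overlapping. The difference in median log2 ratio to the host was -0.0093 and became 0.0475 when antisense loci overlapping a same-strand locus were left out. Causes were not tested.

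Correlations of same-numbered deviations ran from -0.158 to 0.0264. They were not set beside those of differently numbered libraries, so they do not settle whether the replicate numbers pair the libraries. With the replicate number as a block, 1 antisense locus was called (0.0446% of those tested, against 0.151% of all loci), 0 higher and 1 lower. Alternatives chosen after seeing the data (exons of any host, 211 overlaps; the 3 highest antisense loci left out) changed no direction. Most single antisense loci had low counts (median 24.5 normalized), and those tested had a median standard error of 0.242 on the log2 scale.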
